A study of Mus musculus with 2 samples.

Results

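Müller glia are the radial glia of the retina, and a set of 10 genes for their transport and support work was compared between cultured mouse neural retinal progenitor cells (mNRPCs) and retina tissue. The genes were chosen by name, for what they do in Müller glia: Glul, Slc1a3, Aqp4, Kcnj10, Apoe, Clu, Car2, Gpr37, Abca8a and Mlc1. All 10 were found among the 31253 genes that the transcripts of the deposited table gave. The mNRPCs, at passage 24, gave 1 library and the retina gave 1, both from C57BL/6 mice. These cells had been grown from adult neural retina in a chemically defined medium with bFGF, a growth factor, and CHIR99021, which blocks the kinase GSK3, while the age of the retina donors is not given by the labels. With 1 library per group there is no spread between replicates, so the differences below have no replicate check and no p-value was calculated.

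Müller glia span the whole thickness of the retina and serve its neurons. They take up the glutamate that neurons release and turn it into glutamine, drain potassium and water from the tissue, supply lipids in lipoprotein particles and buffer acid. In several vertebrates Müller glia can also return to the cell cycle and act as progenitors.

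Levels are given in FPKM, a fragment count divided by transcript length and by library size, which allows levels of different genes to be compared. The mNRPC depth, estimated from the lowest values, was 6.60e+06 fragments, and that of retina was 4.97e+06. The FPKM values summed to 616860 and 432256. The log2 ratio is log2(FPKM + 1) in mNRPCs minus the same in retina, so it understates the difference of low genes, and a gene that reached 1 FPKM in either library was called lower or higher when this ratio was at least 1 in size, that is 2-fold. Intervals beside levels are 95% Poisson intervals from the estimated fragments, which cover counting error only. In the retina library 10 of 10 rod markers were at 318 FPKM or more. As these are bulk samples, fewer Müller glia and less RNA per cell cannot be told apart.

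The stretches of DNA around the start sites are shown first for 4 of the genes. Whether these stretches bear on the levels of the genes was not tested. RefSeq windows of 300 bases on GRCm38.p6, from 250 bases before the start to 50 bases after it, were at hand for 7 of the 10 genes. Each sequence runs 5′ to 3′ along the gene, and capitals mark every match, on either strand, to one of 9 short motifs searched.
Glul, chr1:153899679-153899978, plus strand: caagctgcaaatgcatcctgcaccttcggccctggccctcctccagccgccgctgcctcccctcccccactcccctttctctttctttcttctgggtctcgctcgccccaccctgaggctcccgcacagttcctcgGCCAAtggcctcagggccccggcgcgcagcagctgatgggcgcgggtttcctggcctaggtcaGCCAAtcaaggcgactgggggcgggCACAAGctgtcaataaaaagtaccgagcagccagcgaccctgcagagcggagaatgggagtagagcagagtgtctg
Slc1a3, chr15:8710758-8711057, minus strand: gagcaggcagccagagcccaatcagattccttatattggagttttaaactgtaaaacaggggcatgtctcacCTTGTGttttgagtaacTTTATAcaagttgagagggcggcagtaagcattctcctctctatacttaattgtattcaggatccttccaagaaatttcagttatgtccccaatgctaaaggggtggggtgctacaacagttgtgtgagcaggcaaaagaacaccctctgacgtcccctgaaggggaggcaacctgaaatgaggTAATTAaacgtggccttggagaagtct
Kcnj10, chr1:172340960-172341259, plus strand: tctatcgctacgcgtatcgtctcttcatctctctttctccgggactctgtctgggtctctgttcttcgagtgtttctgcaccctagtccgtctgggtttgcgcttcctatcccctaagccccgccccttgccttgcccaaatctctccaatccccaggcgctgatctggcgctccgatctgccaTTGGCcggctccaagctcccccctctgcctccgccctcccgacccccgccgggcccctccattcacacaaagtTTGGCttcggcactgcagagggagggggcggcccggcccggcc
Gpr37, chr6:25689931-25690230, minus strand: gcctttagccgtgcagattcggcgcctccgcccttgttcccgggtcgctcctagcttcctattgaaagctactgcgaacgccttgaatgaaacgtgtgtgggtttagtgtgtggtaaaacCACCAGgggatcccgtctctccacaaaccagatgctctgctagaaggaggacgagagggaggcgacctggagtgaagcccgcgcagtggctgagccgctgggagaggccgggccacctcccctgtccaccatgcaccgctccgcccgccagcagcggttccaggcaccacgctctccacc

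The most frequent motif was the half-site of nuclear factor I proteins (TTGGC), which have a part in the formation of Müller glia. It was in 6 of the 9 windows of the 7 genes, those of Glul, Kcnj10, Apoe, Abca8a and Mlc1, and in 46.7% of all 32851 windows. The whole nuclear factor I palindrome, which holds this half-site on each strand, was in 0 of the 9 and in 0.0365% of all windows. The N-box (CACNAG), the letters that Hes repressors bind, was in 5 of the 9 windows against 42.5% of all. The homeodomain letters TAATTA were in the windows of Slc1a3 and Abca8a, 2 of 9 against 5.29% of all, and TATAAA was in 2 of 9 against 13.6%. The SOX letters AACAAAG were in 1 of 9 (5.85% of all) and AACAAT in 0 of 9 (10.7%), the AP-1 letters TGANTCA in 0 of 9 (7.81%), and the TEAD letters GGAATG in 2 of 9 (14.7%). A match is a run of letters and not a shown binding site. The GC content of the 4 windows printed was 64.3% for Glul, 45.3% for Slc1a3, 63.7% for Kcnj10 and 62.7% for Gpr37, with a median of 52.7% over all windows.

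All 10 genes were lower in mNRPCs, each by at least 4-fold on the log2(FPKM + 1) scale, and none was higher. Of the 13780 genes compared, 4130 (30%) were at least 2-fold lower and 3371 (24.5%) at least 2-fold higher, so that 44.9% of the genes past 2-fold were higher. At least 4-fold lower were 1942 of the 13780. After rescaling both libraries to one sum, 30.2% of the genes past 2-fold were higher. The median log2 ratio of the 10 genes was −5.14, with a range from −6.89 to −2.99, while the median over all genes compared was −0.12. Only 252 of the 13780 genes had a log2 ratio at or under the median of the 10. Together the 10 genes held 2162 FPKM or 0.50% of the retina total, and 70.4 FPKM or 0.0114% of the mNRPC total.

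**Figure D1:**
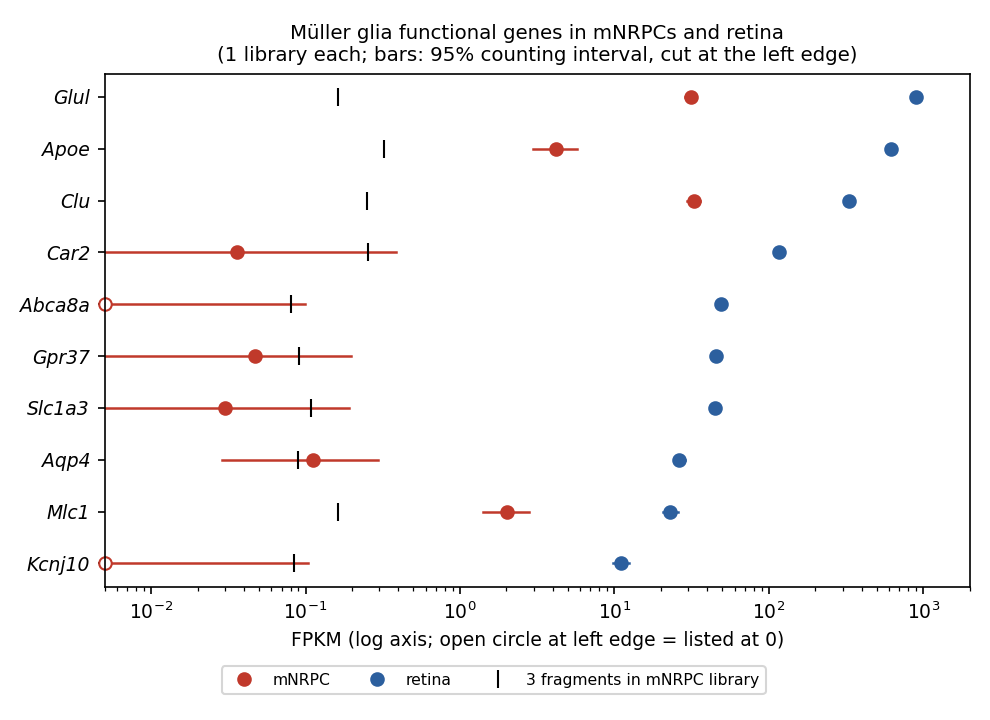
FPKM of the 10 Müller glia genes on a log axis in the mNRPC library (red) and the retina library (blue), with bars for the 95% counting interval and a black tick for the level that 3 fragments give in the mNRPC library. All 10 genes sit above 10 FPKM in retina, while in mNRPCs Clu, Glul, Apoe and Mlc1 lie above 1 FPKM and the other 6 lie near or below the tick, with Kcnj10 and Abca8a listed at 0.

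The 10 genes differed in what was left in mNRPCs. Clu, Glul, Apoe and Mlc1 reached 1 FPKM there, with between 37.0 and 578 estimated fragments. Aqp4 had 3.73 fragments. Gpr37, Slc1a3 and Car2 were above 0 but under 3 fragments, the smallest number treated as detectable, and Kcnj10 and Abca8a were listed at 0, which can also be a failed estimate. All 10 had at least 11.0 FPKM in retina. Among 6698 genes that reached 10 FPKM in retina, a limit chosen after the values were seen, 30.4% were at least 2-fold lower in mNRPCs and 18.1% at least 4-fold lower. Of the same genes, 10.4% were under 1 FPKM in mNRPCs and 3.57% were listed at 0. Against these, 6 of the 10 genes were under 1 FPKM in mNRPCs and 2 were listed at 0.

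The first step of glutamate recycling is uptake. Slc1a3, the gene of the glutamate transporter GLAST, was at 0.0299 FPKM in mNRPCs and at 44.8 FPKM in retina (42.0 to 47.8), a log2 ratio of −5.48. The mNRPC value came to an estimated 0.821 fragments, and its interval reached 0.191 FPKM, far below the retina level. With the pseudocount, a gene at this retina level cannot go below −5.52, so the ratio of Slc1a3 lies next to its lowest possible value. Slc1a3 was listed as a single transcript, NM_148938.3.

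Glul, the gene of glutamine synthetase, turns the glutamate taken up into glutamine. It was at 31.4 FPKM in mNRPCs (28.8 to 34.0) and at 897 FPKM in retina (882 to 913), a log2 ratio of −4.80. In mNRPCs this was 3.49% of the retina level, with a counting interval from 3.21% to 3.8%, or 28.6-fold lower. Glul was the highest of the 10 genes in retina, at rank 24 of all genes, and at rank 2761 in mNRPCs. In contrast to Slc1a3 it was well measured in both libraries, with 578 and 12455 estimated fragments, and its level in mNRPCs was above that of 8 of the other 9 genes. Its counting interval there overlapped that of Clu.

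Other genes of glutamate and glutamine handling went both ways. Of 20 listed genes 19 were compared, and 13 (68.4%) were lower, against 30% of all genes, 2 (10.5%) were higher, against 24.5%, and 4 were within 2-fold, with a median log2 ratio of −2.05. Slc38a3, the gene of a glutamine exporter of glia, was at 2.64 FPKM in mNRPCs against 245 in retina (−6.08). Slc1a2, a glutamate transporter gene of astrocytes and bipolar cells, was at 0.207 and 39.4 FPKM (−5.06). Slc6a11, the gene of a transporter for the transmitter GABA, was listed at 0 in mNRPCs, against 51.6 FPKM in retina. The higher genes were Slc1a5 and Slc38a2, which encode amino acid transporters used by growing cells. Slc1a5 was at 33.9 and 6.54 FPKM (2.21) and Slc38a2 at 71.7 and 17.9 FPKM (1.94). The uptake genes named were thus lower beside amino acid transporter genes that were higher.

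The next genes serve potassium and water. Kcnj10, the gene of the potassium channel Kir4.1, was listed at 0 in mNRPCs, against 11.0 FPKM in retina (9.81 to 12.4). In the mNRPC library 3 fragments would be 0.0841 FPKM. Its log2 ratio of −3.59 is the lowest that this retina level allows. Kcnj10 was the lowest of the 10 genes in retina, and its second transcript was listed at 0 in both libraries.

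Aqp4, the gene of the water channel aquaporin-4, was at 0.112 FPKM in mNRPCs (0.0286 to 0.295) and at 26.4 FPKM in retina (24.4 to 28.5), a log2 ratio of −4.62. The mNRPC level was 0.424% of the retina level, with a wide interval from 0.108% to 1.13%. Mlc1 encodes a membrane protein of glial end-feet that takes part in the control of cell volume. It was at 2.02 FPKM in mNRPCs (1.42 to 2.78) and at 23.0 FPKM in retina (20.6 to 25.7), a log2 ratio of −2.99. Mlc1 was 11.4-fold lower, with an interval from 8.11 to 16.5. Its log2 ratio was the nearest to 0 of the 10, but the pseudocount draws in low values, and without it Clu had the smaller difference, 10.1-fold, with overlapping intervals. Aqp4 and Mlc1 had overlapping intervals in retina, but in mNRPCs Mlc1 was above Aqp4 beyond counting error. Of the Mlc1 level, 94.5% in mNRPCs and 88.9% in retina was on transcript NM_133241.2.

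Of 12 further potassium and water channel genes 7 were compared, with 6 (85.7%) lower, against 30% of all genes, 0 higher, against 24.5%, and a median log2 ratio of −1.58. Kcnk1, a background potassium channel gene, was listed at 0 in mNRPCs, against 17.2 FPKM in retina. Kcnj2, which encodes another inward rectifier, was listed at 0 and was at 2.0 FPKM in retina. Kcnj16 was listed at 0 in both libraries. Aqp1, the gene of another water channel, was at 28.6 FPKM in mNRPCs against 59.0 in retina (−1.02), and was within 2-fold with trimmed mean scaling (−0.95). Water channel genes thus differed, as Aqp4 was at 0.424% and Aqp1 at 48.5% of its retina level.

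Kcnj10 and Aqp4 proteins are held at the end-feet of Müller glia by a complex around dystrophin. Of 14 genes of this complex, all compared, 7 were higher, 3 lower and 4 within 2-fold, beside 24.5% higher and 30% lower over all genes, with a median log2 ratio of 1.01. Dmd, the gene of dystrophin, was at 1.58e-05 FPKM in mNRPCs (0.00155 estimated fragments) against 11.6 in retina (−3.66). Dtnb, the gene of a dystrobrevin, was at 4.04 and 14 FPKM (−1.57). Dag1, the gene of dystroglycan, was higher, at 36.5 and 7.81 FPKM (2.09). Its ligands in the matrix, Lama2 and Agrn, had 25.7 and 50.8 FPKM in mNRPCs, against 0.130 and 8.86 FPKM in retina, and Sgce, a sarcoglycan gene, was at 61.1 and 11.2 FPKM (2.34). With the main retina transcript of each gene alone, Agrn (−1.32) and Sgce (−2.94) and the median of the list (−0.46) turned, so the direction of these depends on which transcripts are counted.

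Hepacam and Gpr37l1, which encode known partners of the Mlc1 protein, were low in both libraries. Hepacam was at 0.0941 FPKM in mNRPCs against 0.917 in retina, and Gpr37l1 was listed at 0 and was at 0.435 FPKM. Atp1b2, a sodium pump subunit gene that photoreceptors use as well, was at 0.433 and 510 FPKM (−8.48). Gja1, the gene of connexin 43, was at 104 and 1.88 FPKM (5.19). The junction gene Gja1 and Cav1 (158 and 34.0 FPKM, 2.18), the gene of caveolin-1, were thus higher in mNRPCs while Mlc1 was lower. Of the 7 genes in this list 5 were compared, with 3 (60%) higher, against 24.5% of all genes, and 2 (40%) lower, against 30%. Their median of 1.13 gives no firm direction. It was −3.34 with main retina transcripts, and over 7 genes, with Hepacam and Gpr37l1 included, it was −0.52 without a filter and −1.0 with both libraries scaled to one sum.

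**Figure D2:**
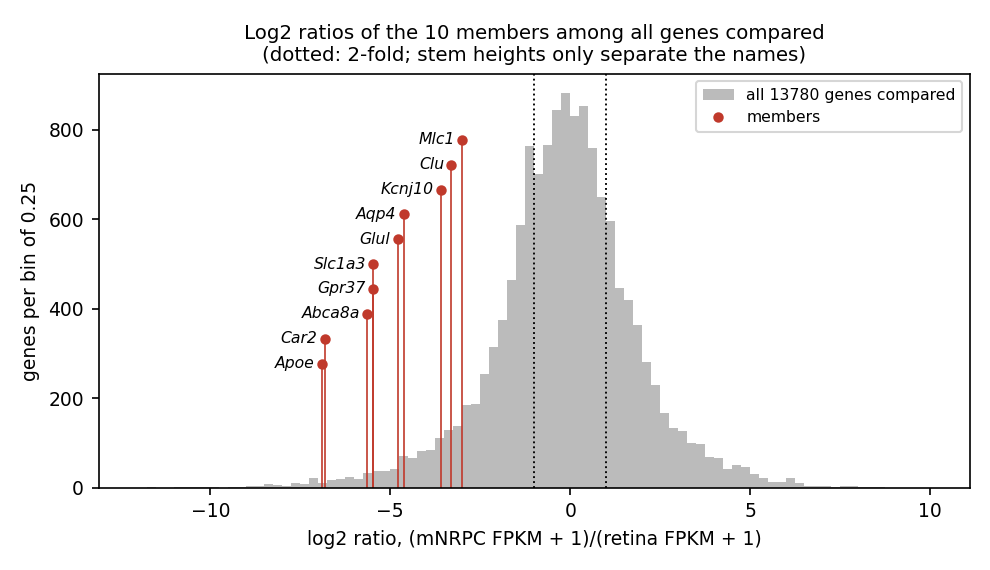
Log2 ratios of the 10 genes (red, with names) over the distribution of all 13780 genes compared (grey bars, genes per bin of 0.25), with dotted lines at 2-fold. The 10 genes lie between −6.89 and −2.99, left of the lower dotted line and in the thin left part of the distribution.

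In retina the lipid carriers Apoe and Clu were the most abundant of the 10 genes after Glul. Apoe, the gene of apolipoprotein E, which carries cholesterol from glia to neurons and is also made by microglia and pigment epithelium, was at 4.21 FPKM in mNRPCs (2.99 to 5.75) and at 618 FPKM in retina (600 to 637). Its log2 ratio was −6.89, the lowest of the 10 genes only with the pseudocount of 1, under which Car2 cannot go below −6.87. The mNRPC level was 0.680% of the retina level, with an interval from 0.483% to 0.931%, or 147-fold lower. Apoe stood at rank 46 of all genes in retina and at rank 8865 in mNRPCs. Only 0.581% of the genes compared had a lower log2 ratio.

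Clu, the gene of clusterin, a secreted chaperone found on the same kind of particle, differed much less. It was at 32.6 FPKM in mNRPCs (29.5 to 36.0) and at 331 FPKM in retina (319 to 343), a log2 ratio of −3.30, which is 10.1-fold lower with an interval from 9.11 to 11.3. In retina Clu was below Apoe, while in mNRPCs it was above Apoe, and the counting intervals did not overlap in either library. Clu had 3 transcripts, and their shares were close in both libraries. NM_013492.2 held 80.7% of the gene in mNRPCs and 83.9% in retina, and the other two were at 11.1% and 15.2% of their retina levels, so each transcript was lower in mNRPCs.

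Abca8a, which encodes a lipid transporter of the ABC family, was listed at 0 in mNRPCs on all 4 of its transcripts and was at 48.7 FPKM in retina (46.2 to 51.4). In the mNRPC library 3 fragments would be 0.0810 FPKM. In retina 75.2% of the gene was on NM_153145.4 and 18.2% on XM_006533062.2. Its relative Abca8b, with which reads may be shared, was at 0.0223 FPKM in mNRPCs against 8.62 in retina (−3.23), so the pair was low together in mNRPCs whichever way such reads were divided.

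Of 20 other genes of lipoprotein export, uptake and control 18 were compared, and 9 (50%) were lower, against 30% of all genes, 3 (16.7%) were higher, against 24.5%, and 6 were within 2-fold, with a median log2 ratio of −1.01. The export genes Abca1 and Abcg1, which load cholesterol onto particles, were lower. Abca1 was at 1.64 FPKM in mNRPCs against 6.07 in retina (−1.42), and Abcg1 was listed at 0 and was at 20.6 FPKM. Abca5, another ABC transporter gene, was at 0.0698 and 13.1 FPKM (−3.72). The receptor gene Lrp1, through which cells take up such particles, was at 23.6 and 9.80 FPKM (1.19), but within 2-fold after rescaling to a common sum (0.73).

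Car2, the gene of carbonic anhydrase 2, which speeds the conversion of carbon dioxide to bicarbonate, was at 0.0362 FPKM in mNRPCs (0.427 estimated fragments) and at 116 FPKM in retina (109 to 123). Its log2 ratio of −6.81 lies close to the lowest that the retina level allows, −6.87. The upper end of its counting interval in mNRPCs was 0.385 FPKM. That is 0.333% of the retina level, below the lower end of the interval of Apoe, while the intervals of Car2, Slc1a3 and Gpr37 overlapped, so these 3 cannot be ranked.

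Of 19 listed genes of carbonic anhydrases and acid-base transport 17 were compared, with 8 (47.1%) lower, against 30% of all genes, 4 (23.5%) higher, near the 24.5% of all genes, 5 within 2-fold and a median log2 ratio of −0.74. Car14, a membrane isoform known from Müller glia, was at 0.0709 FPKM in mNRPCs against 48.2 in retina (−5.52). Car8 was at 0.128 and 18.9 FPKM (−4.14), and Car10 at 0.162 and 15.8 FPKM (−3.85). Car9, an isoform induced by low oxygen, was at 65.4 FPKM in mNRPCs, and at 0.490 FPKM in retina (5.48). Car5b, a mitochondrial isoform, was at 17.7 and 2.18 FPKM (2.56). Slc4a4, a bicarbonate transporter gene, was low in both libraries, at 0.402 and 1.34 FPKM, while its relative Slc4a7 was at 70.9 and 10.7 FPKM (2.62).

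Gpr37 encodes an orphan-like receptor of glia for which prosaposin has been proposed as a ligand. Its level was 0.0472 FPKM in mNRPCs (1.55 estimated fragments) against 45.7 in retina (43.1 to 48.5), a log2 ratio of −5.48. With so few fragments the mNRPC library gives only an upper limit, 0.434% of the retina level. Psap, the gene of prosaposin, was at 717 FPKM in mNRPCs against 327 in retina (1.13). The direction of Psap rested on its transcripts, since the main retina transcript alone gave −4.30, and the gene was within 2-fold after rescaling to a common sum (0.62).

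**Figure D3:**
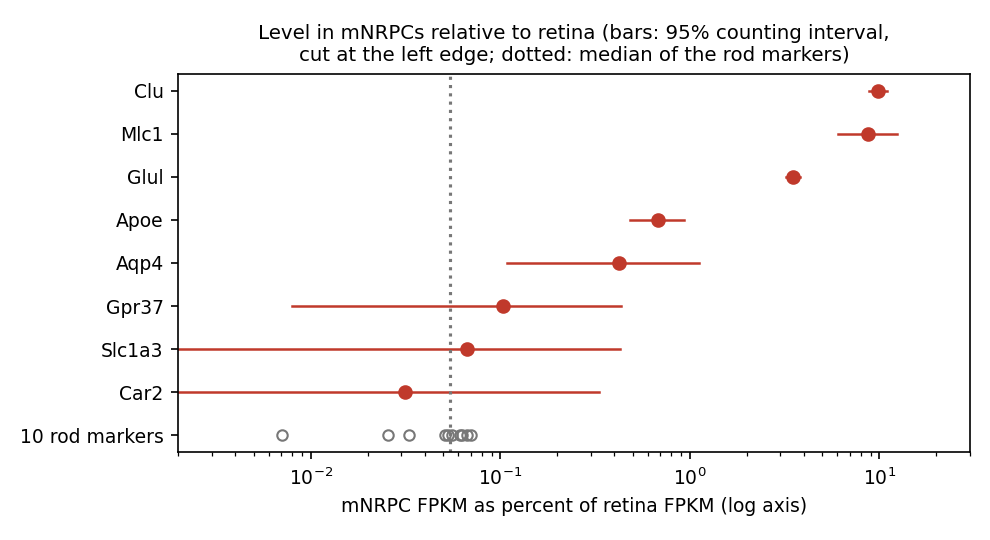
Level in mNRPCs as a percentage of the level in retina, on a log axis, for the 8 genes above 0 in both libraries (red, bars for the 95% counting interval) and for 10 rod markers (grey circles), with a dotted line at the rod median of 0.0543%. Clu, Mlc1, Glul, Apoe and Aqp4 have intervals to the right of the dotted line, and the intervals of Gpr37, Slc1a3 and Car2 cross it.

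The order of the genes therefore changed between the libraries. In retina it was Glul, Apoe, Clu, Car2, Abca8a, Gpr37, Slc1a3, Aqp4, Mlc1 and Kcnj10, with an 81.4-fold range, and the counting intervals overlapped between Abca8a and Gpr37, Gpr37 and Slc1a3, and Aqp4 and Mlc1. In mNRPCs it was Clu, Glul, Apoe, Mlc1, Aqp4, Gpr37, Car2 and Slc1a3, then Kcnj10 and Abca8a. There the intervals overlapped between Clu and Glul and between all neighbours from Aqp4 downwards, so no order can be given among the last 6. Glul, Apoe and Clu held 85.4% of the summed level of the 10 genes in retina, and Glul and Clu alone held 90.8% in mNRPCs.

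Rods make up much of a mouse retina, and the 10 genes were set beside rod transcripts in how much of the retina level was seen in the mNRPC library. The summed level of 10 rod markers was 8.12 FPKM in mNRPCs and 19154 in retina. The 10 rod markers were at 0.00702% to 0.0703% of their retina level in mNRPCs, with a median of 0.0543%. Clu, at 9.87% of its retina level, was 182 times above that median, Mlc1 at 8.75% was 161 times above it, and Glul was 64.3 times above it. Apoe was 12.5 times and Aqp4 7.80 times above it, both with intervals that did not include it. Gpr37, Slc1a3 and Car2 had intervals that included it. At the rod median, Slc1a3, Car2 and Gpr37 would have 0.669, 0.741 and 0.815 fragments, so levels of this size were not detectable at this depth. Rods do not stand for all other neurons. Of 10 bipolar and amacrine markers 9 (90%) were lower, against 30% of all genes compared, and 0 were higher, against 24.5%. These markers ran from listed at 0 in mNRPCs, for 4 of them, up to 61.6% of the retina level. They summed to 11.0 FPKM in mNRPCs and 620.0 in retina. Slc6a9 (61.6%) and Gad2 (27.5%) set the upper part of the range of these neuronal markers. Trpm1 was at 1.75%, and the others above 0 were at 0.147% or less. Slc6a9, Gad2 and Trpm1 were named after their values were seen. Apoe and Aqp4 thus stood above the rods but within this range. Clu, Mlc1 and Glul were below Slc6a9 and Gad2 and above the other markers of this list. The part that other retinal cells have in the values of the 10 genes in mNRPCs was not tested.

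Of 27 other listed markers of Müller glia, all compared, 13 (48.1%) were higher, against 24.5% of all genes, 9 (33.3%) were lower, near the 30% of all genes, and 5 were within 2-fold, with a median log2 ratio of 0.56. The lower genes were led by Rlbp1, the gene of the retinaldehyde-binding protein CRALBP, at 0.0986 FPKM in mNRPCs and 202 in retina (−7.53). Ttyh1, which encodes a chloride channel, was at 0.108 and 115 FPKM (−6.71), and Fxyd1, a regulator of the sodium pump, was listed at 0 and was at 71.5 FPKM. The higher genes were led by Vim, the gene of the filament protein vimentin, at 3138 and 101 FPKM (4.94). Cd44, the gene of a receptor for hyaluronan, was at 99.3 and 2.54 FPKM (4.82), and Timp3, the gene of a protease inhibitor in the matrix, at 285 and 19.9 FPKM (3.78). Both directions held under each scaling tried for these 6 genes.

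**Figure D4:**
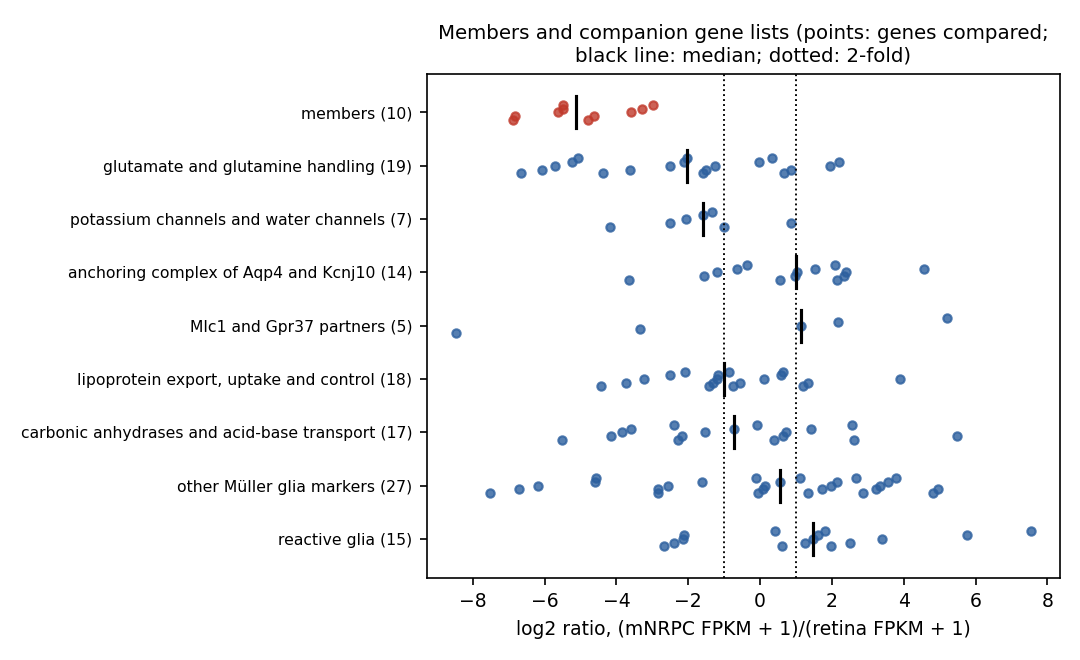
Log2 ratios of the 10 genes (red) and of companion gene lists (blue), 1 point per gene compared, with the number of genes in brackets, a black line at each median and dotted lines at 2-fold. The 10 genes are all left of −1, while each companion list holds genes on both sides of 0, and the medians run from −2.05 to 1.48.

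Other cells could also carry some of the 10 genes. Of the microglia markers, which matter for Apoe, 7 of 10 were listed at 0 in mNRPCs, and the summed level of the list was 106 FPKM in mNRPCs and 40.8 in retina, with 2 of the 10 at 1 FPKM or more in mNRPCs and 4 in retina. Of the 5 compared, 3 (60%) were lower, against 30% of all genes, and 1 (20%) was higher, against 24.5%. The complement genes C1qb and C1qc were listed at 0 in mNRPCs and had 5.89 and 6.11 FPKM in retina. Of the oligodendrocyte markers, which matter for Car2 and Gpr37, the sums were 15.2 and 17.4 FPKM. Cnp, an enzyme gene of myelin-forming cells, made up most of the mNRPC sum and was higher there (15.0 and 6.53 FPKM, 1.08), but within 2-fold with both libraries scaled to one sum (0.65). Mbp was listed at 0 in mNRPCs, against 6.45 FPKM in retina, and 5 of the 10 genes were listed at 0 in retina. The 10 pigment epithelium markers summed to 9.49 FPKM in mNRPCs, nearly all from the retinol dehydrogenase gene Rdh5 (9.28 and 4.63 FPKM, named after its values were seen), and 115 in retina, with Ttr at 56.5 FPKM in retina and listed at 0 in mNRPCs. The 10 astrocyte markers summed to 278 and 247 FPKM, most of it in mNRPCs from Aldoc, a glycolysis gene (173 and 187 FPKM), and Gja1 (104 and 1.88 FPKM), which was higher in mNRPCs. Aldoc was named after its values were seen. Of the others, Gfap, which reactive Müller glia also make, was listed at 0 in mNRPCs, against 5.33 FPKM in retina. The paper, however, reports GFAP in mNRPCs by antibody staining and by RT-PCR, and a listed 0 can be a failed estimate. S100b was at 0.0875 and 6.6 FPKM (−2.81). The part of these cells in the retina levels of the 10 genes was not tested.

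Over the 2 libraries, the genes nearest in level to the 3 most abundant members were found by the distance between log2(FPKM + 1) values. Nearest to Glul were Unc119 (31.0 FPKM in mNRPCs and 1315 in retina), Ckb (17.4 and 896) and Vamp2 (27.3 and 404). Nearest to Apoe were Guca1a (4.53 and 1131), Syp (1.94 and 455) and Kcnj14 (2.56 and 253). Near to Clu were Agpat3 (41.9 and 319) and again Vamp2. With 2 libraries such likeness means no more than similar levels, and none of the genes named here for it was on a list used above.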

How the data were processed

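The authors deposited 1 table of FPKM values per RefSeq transcript, with 106754 rows and 1 column per library. The submitters' processing notes name TopHat2 2.0.10 and GRCm38.p3. The study's methods describe Bowtie 2 and estimation of FPKM with eXpress, for sequencing on another platform than the series text names, so which applies to these values is not settled. Reads that fit several transcripts have to be divided by estimation, which makes gene sums firmer than single transcripts. Other versions and the annotation are not given in the sources used here.

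Accessions were matched without version to RefSeq (GRCm38.p6) and then to GENCODE M21, which named 74280 rows (69.6%), and rows of a symbol were summed to 31253 genes. Values below 1e-06 were read as 0. A pseudocount of 1 followed the study. The depth came from the lowest peak of FPKM times length, where transcripts with 1 fragment lie, over 6230 transcripts of at least 1500 bp that were the only one of their gene. Genes with at least 1 FPKM in 1 library were compared, and a log2 ratio of 1 in size was the threshold. Fragment numbers of single genes used the length of the main transcript. This estimate and the 2-fold calls were tested on simulated data. Groups came from the labels. Every per-sample column was used.

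The 10 genes and all lists were chosen with earlier results of these data known. Named genes were the 10, fixed partners, the nearest genes, and of each list up to 3 in each direction among genes of at least 5 FPKM past 2-fold. Alternatives changed the pseudocount, filter, scaling, transcripts, matching and threshold. Python 3.11.15, pandas 2.3.3 and scipy 1.17.1 were used. Some genes that this rule names are not reported here.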

Additional observations from a re-analysis of the deposited data

How the results depend on the processing

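All 10 genes stayed at least 2-fold lower in mNRPCs under each alternative that held them. Over these alternatives the 10 genes had 95 values, from −9.73 to −2.89, of which 54 stayed within counting error and 41 moved in size. With accessions matched by version 7 of the 10 remained, as Aqp4, Apoe and Clu had other versions. The median of the 10 was −7.07 with a pseudocount of 0.1, and −7.54 with low values set to 3 fragments and no pseudocount. Genes at least 2-fold lower numbered 6349 after rescaling to a common sum and 6582 when rod genes were left out before it, and with the log2 threshold at 2 there were 1942 lower and 1547 higher, fewer by construction. The median of all genes went from −0.12 to −0.68 with the common sum, and relative to it the 10 genes stayed lower. With the main retina transcript alone, Agrn (−1.32), Psap (−4.30), Sgce (−2.94), the anchoring complex median (−0.46) and the median of Mlc1 and Gpr37 partners (−3.34) turned. The cause of these turns was not tested. The last median was also −0.52 without a filter, −1.0 with the common sum and −1.04 with rod genes left out, over 7 genes in place of 5, since Hepacam and Gpr37l1, both low, then entered the list. Depth was 6.28e+06 to 6.60e+06 fragments for mNRPCs and 4.83e+06 to 5.16e+06 for retina over the shortest lengths tried. It limits Gpr37, Slc1a3, Car2, Kcnj10 and Abca8a, for which the mNRPC library gives only an upper limit. No paired analysis was possible because there was a single library of each kind.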

Other observations

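Genes of reactive glia, the state that Müller glia and astrocytes enter after injury, were mostly higher in mNRPCs. Of 15 listed genes, all compared, 9 (60%) were higher, 4 (26.7%) lower and 2 within 2-fold, with a median log2 ratio of 1.48. Over all genes compared, 24.5% were higher and 30% lower. Ccl2, a chemokine gene, had 375 FPKM in mNRPCs against 1.02 in retina (7.54). Timp1, the gene of a protease inhibitor, had 77.9 FPKM in mNRPCs against 0.460 in retina (5.76), and Socs3, a feedback inhibitor of cytokine signals, at 27.5 and 1.72 FPKM (3.39). The lower genes included Gfap, the usual marker of that state, which was listed at 0 in mNRPCs, and S1pr3, a lipid receptor gene, at 0.461 and 6.63 FPKM (−2.39). For Gfap the paper reports otherwise, as it found GFAP in mNRPCs by antibody staining and by RT-PCR.

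Markers of cells that lie around Müller glia differed by cell type. None of the 10 endothelial markers reached 1 FPKM there, with sums of 0.151 FPKM in mNRPCs and 49.4 in retina, and Kdr was at 0.0219 FPKM against 29.5 in retina (−4.90). Of the 10 markers of mural cells and fibroblasts, 7 were compared, with 3 (42.9%) higher, 1 (14.3%) lower and 3 within 2-fold. Over all genes compared, 24.5% were higher and 30% lower. The 10 markers summed to 470 FPKM in mNRPCs and 19.6 in retina. The higher genes were Col3a1, a collagen gene (449.8 and 0.311 FPKM, 8.43), Acta2, an actin gene of smooth muscle (10.1 and 4.39 FPKM, 1.05, but 0.64 with both libraries scaled to one sum), and Pdgfrb, a receptor gene of pericytes (4.49 and 1.24 FPKM, 1.29), the last named after its values were seen. The lower gene was Rgs5, a pericyte gene, listed at 0 in mNRPCs against 8.16 FPKM in retina.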
